A study of Homo sapiens with 28 samples.

Results

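The transcripts of 10 genes were followed in 28 RNA-seq libraries of SEM cells: EGR1, EGR2, EGR3, KLF2, KLF3, KLF6, KLF10, KLF13, NAB1 and NAB2. The genes were picked by symbol, and all 10 symbols were found among the 57820 genes of the count tables. SEM cells come from a B-lineage leukemia with the MLL-AF4 fusion. The study asked which genes respond when the architectural factor CTCF is degraded with an auxin, and made lines with added CTCF forms that lack single domains.

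EGR proteins are zinc finger transcription factors that bind GC-rich DNA, and their genes are immediate early genes, switched on within minutes of a growth factor, antigen receptor or stress signal without new protein synthesis. NAB1 and NAB2 are corepressors that dock on EGR1, EGR2 and EGR3 and dampen their activity. KLF proteins carry related zinc fingers and bind GC and CACCC boxes. KLF2 is known for holding lymphocytes in quiescence and directing their migration, and KLF6 and KLF10 respond to growth factor and TGF-beta signals.

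The 24 h set held 12 libraries in 4 groups. CTCF-AID2 cells carry endogenous CTCF fused to a degron tag and mClover3, with OsTIR1(F74G) expressed constitutively from a lentiviral MND promoter and a doxycycline-inducible wild-type OsTIR1 from the parental line. They gave 4 untreated libraries and 4 from cells kept 24 h in the auxin analog 5-Ph-IAA (with 1 µM in the sample titles and a higher dose in the protocol text). SEM WT cells, which carry no degron, gave 2 untreated libraries and 2 from cells given IAA, a regimen that included doxycycline in the study's methods. The 6 h set held 16 libraries of 4 lines, with 2 libraries per line without auxin and 2 with IAA for 6 h. All 4 are degron cells with a doxycycline-inducible HA-tagged CTCF, which is full-length in the line called WT, and lacks the first zinc finger in dZF1, the tenth in dZF10 and the RNA-binding region in dRBR. The labels of the 6 h set name only IAA, whereas the study's text on these lines names 5-Ph-IAA and doxycycline, so the agent given at 6 h, and whether the added CTCF was present, is uncertain. No cells without a degron were in the 6 h set, so effects of the added agents and of CTCF loss cannot be told apart in it.

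Each library held 25.8 to 60.7 M counts (6 h set) or 45.7 to 59.8 M counts (24 h set). Levels are given as CPM, counts per 1 M counts, scaled with TMM factors, or per transcript length as TPM, an abundance scaled by transcript length, and changes as log2 fold changes fitted with limma-voom over all genes of a set. A change passed the test at a Benjamini-Hochberg adjusted p of at most 0.05. CTCF mRNA, which does not report on the tagged protein, was higher with auxin in CTCF-AID2 cells (253 against 148 CPM) and in all 4 lines of the 6 h set (211 to 278 against 153 to 161 CPM), and differed little in SEM WT cells (139 against 149 CPM). The 2 IAA libraries of dZF1 differed from each other by a chi-square per gene of 146, against 12.7 to 28.6 for the other replicate pairs of the 6 h set, so values are given without each of them where they bear on a result. Of 8 B precursor markers 7 were above 1 CPM at 24 h and 8 at 6 h, with a summed level of 928 to 1450 CPM. CD3D and S100A8, markers of T cells and of myeloid cells, were at 0 in every library, but other markers of these types were present. Of 6 T and NK markers 1 was above 1 CPM, at up to 27.6 CPM, and a myeloid marker reached 45.6 CPM at 24 h. Summed myeloid markers (2 of 7 above 1 CPM) were lower with auxin at 6 h, with 13.9 to 19.5 CPM against 28.5 to 41.0, and their part in the results was not tested.

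Of the members, 7 were matched by symbol to promoter windows of 300 bases from RefSeq (assembly GRCh38.p14), which start 250 bases before a transcript start. EGR3, KLF3 and KLF10 were not matched, so their promoters were not searched. The windows were searched on both strands for the CArG box, the element bound by serum response factor (SRF) in many immediate early genes, and for GCGNGGGCG, the core of the site that EGR proteins bind. A member could have more than 1 window, and the members had 11. The CArG box was found in 1.29% of all 35116 windows and in 2 of these 11, from EGR1 and EGR2. Other windows of EGR2 held none. The EGR1 stretch with both of its CArG boxes, at chr5:138465364-138465423 on the plus strand, and the EGR2 stretch, at chr10:62816397-62816456 on the minus strand, are shown because these genes rose together at 6 h. Capitals mark the boxes.
EGR1: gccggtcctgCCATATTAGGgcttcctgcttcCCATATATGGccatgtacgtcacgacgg
EGR2: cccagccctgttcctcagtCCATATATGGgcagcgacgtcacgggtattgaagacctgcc
No CArG box was found for KLF2 or KLF6, which rose as well. The KLF2 window held a MEF2 box, the AT-rich element that MEF2 factors bind, which was looked for after this window had been read. The search used a looser pattern with any base at the middle positions of the box, which was found in 2.73% of all windows. The share of windows with the AT-rich form was not counted. Capitals mark the box in the stretch at chr19:16324676-16324735 on the plus strand.
KLF2: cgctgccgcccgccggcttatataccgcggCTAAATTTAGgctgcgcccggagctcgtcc

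GCGNGGGCG was found in 9.43% of all windows and in 7 of the 11 windows of members. These windows belonged to 6 of the 7 matched members, EGR1, EGR2, KLF2, KLF6, NAB1 and NAB2. Stretches of EGR1 (chr5:138465264-138465308, plus strand), KLF6 (chr10:3785250-3785299, minus strand) and NAB2 (chr12:57089029-57089078, plus strand) are shown because EGR1 and KLF6 rose and NAB2 fell at 6 h. Capitals mark the pattern, which can overlap GGGCGG, the GC box of SP and KLF factors. GGGCGG was found in 45.0% of all windows and in 8 of the 11 windows of members. Whether the windows of members are richer in GC than others was not tested.
EGR1: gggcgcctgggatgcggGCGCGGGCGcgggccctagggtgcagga
KLF6: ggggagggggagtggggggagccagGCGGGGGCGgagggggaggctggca
NAB2: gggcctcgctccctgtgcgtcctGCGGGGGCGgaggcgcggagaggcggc
CCGGAA, TGACGTCA and TGANTCA, chosen forms of ETS, CREB and AP-1 sites, were found in 17.2%, 1.85% and 7.71% of all windows. None of the 11 windows of members held these exact patterns. Shorter or other forms of the sites were not searched for, so whether the windows lack such sites was not tested.

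Without auxin the corepressor NAB2 was the member with the highest level per length in the 6 h set, at a median of 13.1 TPM (10.7 to 15.2 over 8 libraries). It was followed by KLF13 (8.94 TPM), NAB1 (7.56), KLF6 (5.11), KLF3 (4.12), KLF10 (2.71), EGR1 (1.69), KLF2 (0.42), EGR2 (0.04) and EGR3 (0.03). NAB2 did not overlap KLF13 in any library, whereas the ranges of neighbors from KLF13 down to KLF10 overlapped, as did those of EGR2 and EGR3. KLF10 and EGR1 were just apart, with a lowest KLF10 value of 2.06 TPM and a highest EGR1 value of 2 TPM. With auxin KLF6 came first at 18.1 TPM (12.8 to 21), EGR1 second at 9.46 TPM (6.81 to 12.6), and NAB2 came after KLF13 and NAB1 at 5.91 TPM (4.68 to 8.83). In the 4 untreated CTCF-AID2 libraries of the 24 h set the order by mean was KLF13 (7.19 TPM), NAB1 (6.66), NAB2 (5.11), KLF6 (4.8), KLF3 (2.9), KLF10 (2.54), KLF2 (0.583), EGR1 (0.485), EGR2 (0.03) and EGR3 (0.0275). The neighbors KLF6 and KLF3, KLF10 and KLF2, and EGR1 and EGR2 did not overlap there, and the other neighbors did. In the 2 untreated SEM WT libraries NAB1 came first (7.24 TPM), and NAB2 (3.16) came after KLF13 (6.02), KLF6 (4.46) and KLF10 (3.24), overlapping KLF10.

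The response at 6 h was one of rising EGR genes, KLF2 and KLF6 beside a falling NAB2. In the mean effect over the 4 lines EGR1 was 5.56-fold higher with auxin, KLF2 12-fold and KLF6 3.78-fold, and NAB2 was 2.25-fold lower. KLF10 rose and KLF3 and NAB1 fell by smaller amounts, and KLF13 did not pass the test. EGR2 and EGR3 lay above the low-count filter of 1 CPM only in libraries with auxin, so they are described apart. Of the other 8 members, 4 passed as higher and 3 as lower, with 51.5% of all 13902 tested genes past the test (25.1% higher and 26.4% lower). Their log2 fold changes ran from -1.17 to 3.59 with a median of 0.08, beside -0.01 over all genes. In bulk RNA fewer expressing cells and less RNA per cell cannot be told apart.

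EGR1 (ENSG00000120738.7, chr5:137801168-137804992, hg19) was low in every untreated library of the 6 h set, with a median of 12.2 CPM (7.49 to 15.04). With auxin it was at 78.7 and 83.2 CPM in the WT line, 94.5 and 35.9 in dZF1, 50.9 and 60.7 in dZF10, and 71.0 and 47.6 in dRBR. Every treated library was above every untreated one, and the highest and the lowest treated value were those of the dZF1 libraries. The fitted mean log2 fold change was 2.48 ± 0.19 (SE, adjusted p 1.33e-06), with 2.31 without the first and 2.66 without the second of them.

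EGR2 (ENSG00000122877.9, chr10:64571756-64578927), which in lymphocytes restrains activation, was close to silent without auxin, at 2 to 14 reads per library (0.0455 to 0.316 CPM). It reached 161 to 266 reads with auxin (3.55 to 6.19 CPM). EGR3 (ENSG00000179388.8, chr8:22545172-22550993), a relative that acts beside EGR2, went from 4 to 21 reads without auxin (0.091 to 0.491 CPM) to 55 to 130 reads with auxin (1.26 to 3.13 CPM). Neither gene overlapped between treated and untreated libraries in any line. Their mean log2 fold changes, 4.55 ± 0.33 for EGR2 and 3.20 ± 0.29 for EGR3 are given as a description, since both genes entered the test only through their libraries with auxin. The untreated counts behind these ratios were few, and each gene overlaps a long noncoding RNA gene that was not tested.

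KLF2 (ENSG00000127528.5, chr19:16435637-16439496) was likewise low without auxin, at 28 to 70 reads (0.806 to 1.82 CPM). With auxin it stood at 19.8 and 18.0 CPM in the WT line, 17.8 and 10.9 in dZF1, 11.9 and 13.7 in dZF10, and 17.0 and 10.8 in dRBR. The groups were far apart in every line, and the mean log2 fold change was 3.59 ± 0.21 (adjusted p 1.61e-07), sixth from the top.

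KLF6 (ENSG00000067082.10, chr10:3818188-3827473) started from a much higher level, with a median of 36.3 CPM without auxin (30.7 to 42.1). It was at 165 and 157 CPM in the treated WT line, 194 and 88.2 in dZF1, 109 and 134 in dZF10, and 170 and 122 in dRBR. No treated library overlapped an untreated one, and the mean log2 fold change was 1.92 ± 0.14 (adjusted p 1.07e-06). As with EGR1, the dZF1 libraries held the highest and the lowest treated value, and the mean was 1.78 without the first and 2.06 without the second.

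NAB2 (ENSG00000166886.8, chr12:57482826-57489259) moved the other way. It was at 64.6 to 74.7 CPM without auxin (median 69.9) and at 27.9 to 33.0 CPM with auxin (median 31.1). The fall was even across lines, and the log2 fold change of -1.17 ± 0.035 (adjusted p 9.31e-10) was the 70th lowest of all genes. NAB2 shares 69 bases with STAT6 on the opposite strand, and whether counting used strand was not stated. STAT6 itself was at a median of 183 CPM without and 185 CPM with auxin (log2 fold change -0.01 ± 0.04, adjusted p 0.841).

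NAB1 (ENSG00000138386.12, chr2:191511472-191557492) fell less, from 44.9 to 47.4 CPM without auxin to 34.7 to 41.0 CPM with auxin, again with no overlap (log2 fold change -0.35 ± 0.04, adjusted p 3.30e-05). KLF3 (ENSG00000109787.8, chr4:38665818-38703138), a repressor that recruits CtBP, went from 37.98 to 41.58 CPM to 29.50 to 38.98 CPM, with no overlap within a line, although a treated dZF1 library lay above the lowest untreated library of dRBR (log2 fold change -0.30 ± 0.04, adjusted p 6.29e-05). KLF10 (ENSG00000155090.10, chr8:103661012-103667953), a TGF-beta responsive repressor, was at 16.5 to 22.8 CPM without and 19.4 to 24.5 CPM with auxin (log2 fold change 0.23 ± 0.05, adjusted p 0.00227). KLF13 (ENSG00000169926.5, chr15:31619038-31727868), which had the highest CPM of the members without auxin, was at 136 to 156 CPM without and 119 to 149 CPM with auxin (log2 fold change -0.06 ± 0.05, adjusted p 0.304). Without the first IAA library of dZF1 KLF13 passed as lower (-0.10, adjusted p 0.0203). KLF3 overlaps the antisense gene KLF3-AS1 by 730 bases, KLF13 holds a processed pseudogene and NAB1 overlaps long noncoding RNA genes on the opposite strand, so low-level sharing of reads cannot be told apart in these counts.

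**Figure D1:**
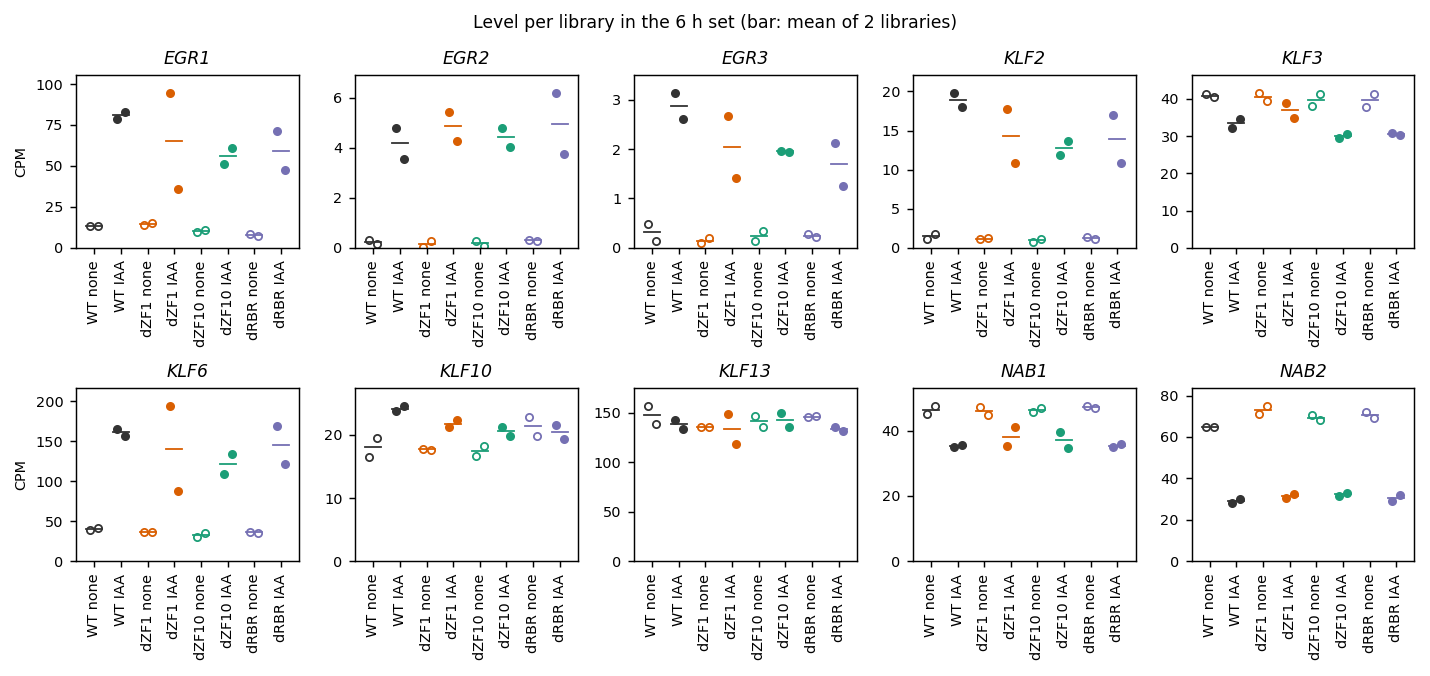
Levels of the member genes in CPM (y axis, from 0) in each library of the 6 h set, by line and treatment (x axis). Open circles are libraries without auxin, filled circles those with IAA, and bars the mean of 2 libraries. EGR1, EGR2, EGR3, KLF2, KLF3, KLF6, NAB1 and NAB2 do not overlap between treated and untreated libraries within any line. Each side holds 2 libraries, and the share of all genes without overlap was not counted. EGR2 and EGR3 passed the low-count filter only with auxin. The dZF1 libraries with IAA are the farthest apart for EGR1 (94.5 and 35.9 CPM) and KLF6 (194 and 88.2 CPM).

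The same members were then read line by line, over the 8 other than EGR2 and EGR3. In the WT line 4 rose and 3 fell (13.7% of all genes passed, 6.45% higher and 7.21% lower). For dZF1 these were 4 and 2 (33.6%, with 17.1% and 16.4%), for dZF10 3 and 3 (18.1%, with 8.88% and 9.24%), and for dRBR 3 and 3 (10.5%, with 4.8% and 5.68%). EGR1, KLF2, KLF6 and NAB2 passed in each line in the same direction, with log2 fold changes of 1.98 to 2.90, 3.46 to 3.70, 1.83 to 1.99 and -1.21 to -1.10. In dZF1 the value of EGR1 was 1.296 without the first IAA library and 2.702 without the second, and that of KLF6 1.25 and 2.4. The smaller changes were less even. KLF10 passed in the WT line (0.43 ± 0.10) and dZF1 (0.30 ± 0.10), was 0.23 ± 0.10 in dZF10 and -0.05 ± 0.10 in dRBR, and KLF3 passed in every line but dZF1 (-0.14 ± 0.08). NAB1 passed in all 4 (-0.41 to -0.28). Leaving out 1 library of a line could end the calls of KLF3, KLF10 and NAB1 in it, with adjusted p of up to 0.197, 0.171 and 0.141. With only the dZF1 libraries in the fit none of the members passed in that line (0 of 10, EGR2 and EGR3 included), with adjusted p of 0.152 for EGR1, 0.0865 for KLF2 and 0.0757 for NAB2. In dRBR the call of NAB1 was lost without any 1 of its 4 libraries, and that of KLF3 without any 1 but the first untreated library.

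**Figure D2:**
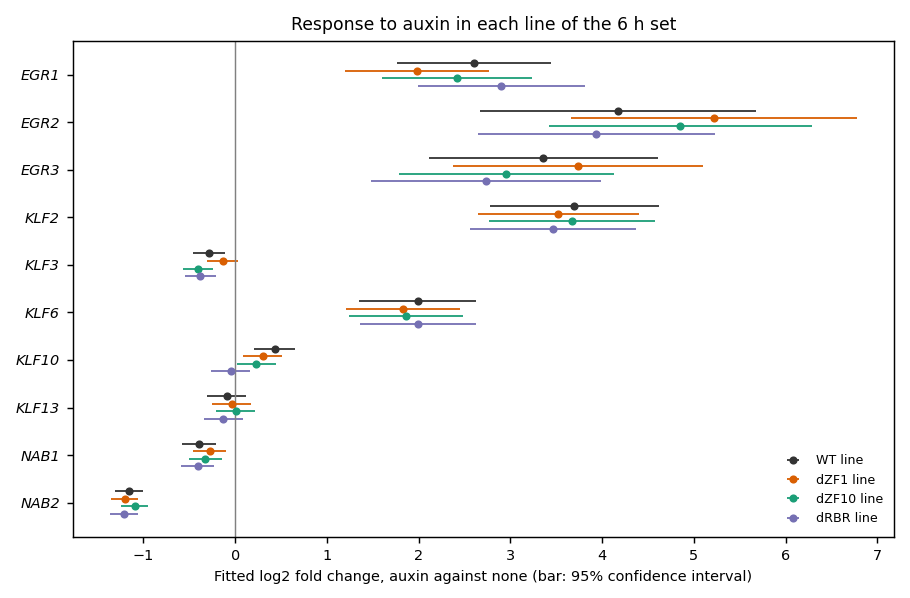
Fitted log2 fold change of auxin against none (x axis) for each member (y axis) in the 4 lines of the 6 h set, with 95% confidence intervals as bars. The fitted values run from EGR2 (3.94 to 5.22) down to NAB2 (-1.21 to -1.10), and the intervals of the WT line and dRBR do not overlap for KLF10. The difference between these KLF10 responses did not pass the test after adjustment over all genes.

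The deletion lines were compared with the WT line through the difference of their responses. None of the 10 members passed for dZF1 (0.331% of all genes past the test), dZF10 (0.0432%) or dRBR (0%). Over all tested genes an unadjusted p under 0.05 was reached by 2403, 391 and 350 genes, and among the 8 members by 0, 0 and 1, KLF10 in dRBR (-0.48, 95% confidence interval -0.78 to -0.17, adjusted p 1.0). The edgeR quasi-likelihood test and DESeq2 gave 0 members as well. For NAB2 the intervals of the difference reached from -0.26 to 0.17 in dZF1, -0.15 to 0.28 in dZF10 and -0.27 to 0.16 in dRBR. These bounds were small beside its 6 h mean log2 fold change of -1.17, and differences within them were not excluded. For the other members the intervals were too wide to show that the lines responded alike. For EGR1 they reached from -1.77 to 0.53, -1.36 to 0.99 and -0.94 to 1.54. The dZF1 value rested on 1 library. With only the second IAA library of dZF1 in that group, taken to vary like the other groups, the EGR1 response was lower than in the WT line by a log2 difference of -1.31 (adjusted p 0.00532) and that of KLF6 by -0.74 (adjusted p 0.0284). With only the first they were 0.10 (adjusted p 0.901) and 0.41 (adjusted p 0.398).

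Untreated deletion lines did not differ from the untreated WT line in any member past the test (0 of 10 in each, 0% of all genes). An unadjusted p under 0.05 was reached by 1, 0 and 1 of the 8 members in dZF1, dZF10 and dRBR. The lowest fitted difference among the 8 members was EGR1 in dRBR, at 7.49 and 8.20 CPM against 13.3 and 13.4 CPM (log2 difference -0.78, 95% confidence interval -1.81 to 0.26, adjusted p 0.994). KLF10 reached an unadjusted p of 0.0439 in dRBR, at 22.8 and 19.9 CPM against 16.5 and 19.6 CPM (log2 difference 0.23, adjusted p 0.96). NAB2 reached 0.0259 in dZF1, at 71.0 and 74.7 CPM against 65.0 and 64.6 CPM (log2 difference 0.17, adjusted p 0.999).

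At 24 h in CTCF-AID2 cells EGR1 and 4 of the 5 KLF members were higher with 5-Ph-IAA, and NAB1 and NAB2 did not pass the test. The fitted changes of EGR1, KLF2 and KLF6 were smaller than at 6 h, those of KLF3 and KLF13 were not, and the difference between times was not tested. KLF2 was 2.09-fold higher and EGR1 1.66-fold, KLF3, KLF13 and KLF6 were 1.32-, 1.3- and 1.18-fold higher, and KLF10 was lower, at a fold of 0.806. Of the 8 members tested 5 passed as higher and 1 as lower, with 58.7% of all 13973 genes past the test (29.2% higher and 29.5% lower). The median log2 fold change of the 8 was 0.31, beside -0.00 over all genes. KLF2 alone among the 8 passed with a change of at least 2-fold, as did 3.56% of all genes.

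KLF2 was at 1.73, 1.92, 1.86 and 2.08 CPM in the 4 untreated CTCF-AID2 libraries and at 3.90, 4.24, 4.14 and 3.61 CPM in the 4 treated ones. The groups were well apart (log2 fold change 1.06 ± 0.09, adjusted p 2.07e-07). In SEM WT cells KLF2 was at 1.28 and 1.52 CPM without and 1.44 and 1.53 CPM with IAA (log2 fold change 0.09 ± 0.17, adjusted p 0.764).

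EGR1 was at 4.65, 3.85, 3.16 and 2.98 CPM without and 4.67, 4.90, 7.54 and 7.46 CPM with 5-Ph-IAA in CTCF-AID2 cells. The lowest treated library was barely above the highest untreated one, and the treated libraries fell into a lower and a higher pair (log2 fold change 0.73 ± 0.18, adjusted p 0.00316). In SEM WT cells EGR1 was at 5.08 and 6.05 CPM without and 5.72 and 6.61 CPM with IAA (log2 fold change 0.16 ± 0.24, adjusted p 0.699). EGR2 and EGR3 did not pass the filter at 24 h. EGR2 counted 11, 11, 9 and 10 reads in untreated and 21, 30, 44 and 20 in treated CTCF-AID2 libraries, without overlap, and in a fit without the filter its log2 fold change was 1.33 (adjusted p 0.00633). EGR3 counted 5 to 11 reads without and 7 to 14 with 5-Ph-IAA (0.31, adjusted p 0.563 in that fit).

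KLF3 was at 29.4 to 31.9 CPM without and 36.6 to 46.4 CPM with 5-Ph-IAA, and KLF6 at 36.8 to 38.2 CPM without and 39.9 to 47.98 CPM with it, both without overlap (log2 fold changes 0.40 ± 0.06 and 0.24 ± 0.05, adjusted p 4.95e-05 and 0.00101). In SEM WT cells both were level, at 31.1 to 31.9 CPM against 31.6 to 31.7 for KLF3 and 36.01 to 36.96 CPM against 33.43 to 37.29 for KLF6. NAB2 was at 26.9 to 29.5 CPM without and 26.9 to 29.2 CPM with 5-Ph-IAA (log2 fold change -0.005 ± 0.048, 95% confidence interval -0.11 to 0.10), and NAB1 at 41.6 to 45.2 CPM without and 38.8 to 43.5 CPM with it (-0.07 ± 0.04, adjusted p 0.188).

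KLF10 went in opposite directions in the 2 lines. It was at 18.99, 17.77, 19.16 and 19.45 CPM without and 15.27, 14.93, 16.44 and 14.00 CPM with 5-Ph-IAA in CTCF-AID2 cells, lower without overlap (log2 fold change -0.31 ± 0.05, adjusted p 0.000112). In SEM WT cells it was at 24.42 and 24.55 CPM without and 34.35 and 32.23 CPM with IAA, higher without overlap (log2 fold change 0.44 ± 0.06, adjusted p 0.000293). KLF13 rose in both, from 116 to 124 CPM to 154 to 157 CPM in CTCF-AID2 cells (log2 fold change 0.38 ± 0.03, adjusted p 7.12e-08) and from 102 and 104 CPM to 135 and 144 CPM in SEM WT cells (0.44 ± 0.04, adjusted p 6.43e-06). KLF10 and KLF13 were the members past the test in SEM WT cells (2 of 8, both higher, with 18.9% of all genes past the test, 9.35% higher and 9.57% lower).

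**Figure D3:**
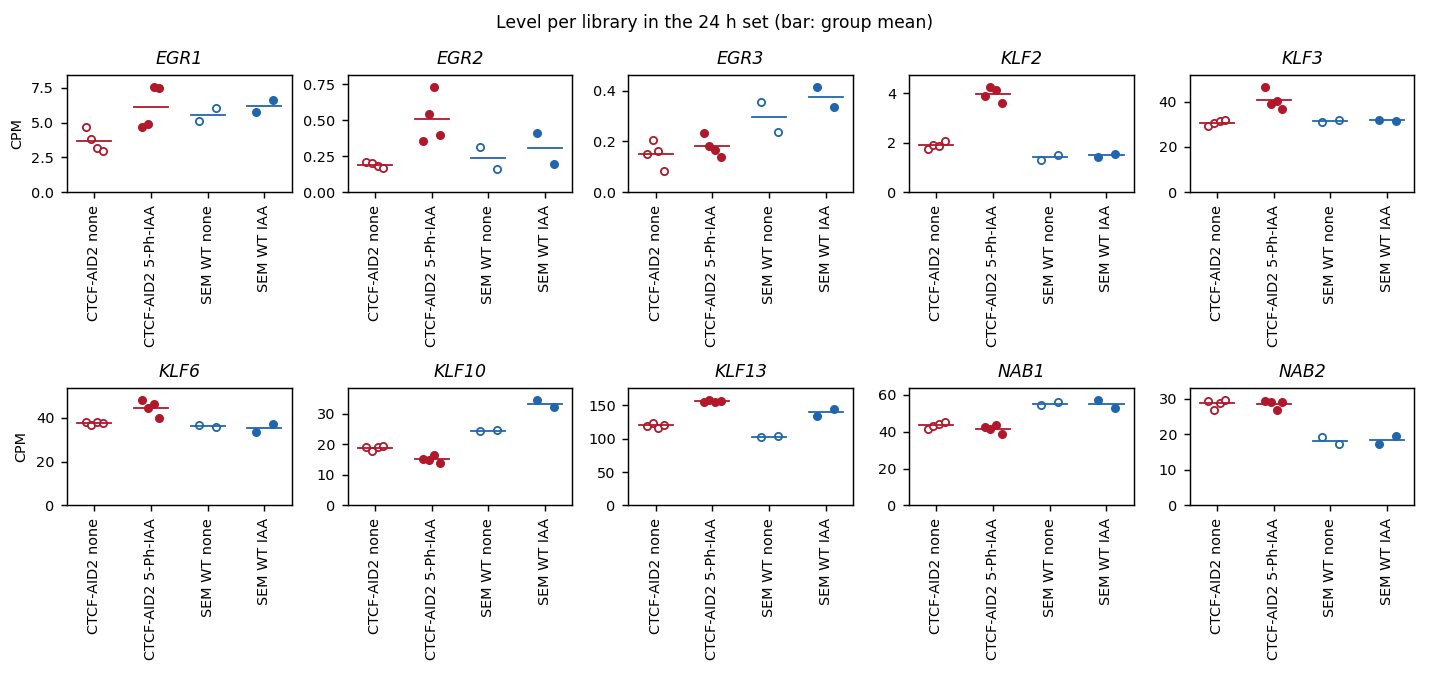
Levels of the member genes in CPM (y axis, from 0) in each library of the 24 h set, by line and treatment (x axis). Open circles are libraries without auxin, filled circles those with 5-Ph-IAA or IAA, and bars group means. KLF2 separates in CTCF-AID2 cells (1.73 to 2.08 against 3.61 to 4.24 CPM) and not in SEM WT cells, KLF13 rises in both, and KLF10 goes down in one and up in the other.

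The difference of the 24 h responses, CTCF-AID2 minus SEM WT, passed for KLF2 (0.97 ± 0.195, adjusted p 0.00127), KLF3 (0.39 ± 0.11, adjusted p 0.00907), KLF6 (0.29 ± 0.09, adjusted p 0.0225) and KLF10 (-0.75 ± 0.08, adjusted p 6.34e-06), 4 of 8 members with 40.2% of all genes past the test (19.3% higher and 20.9% lower). That of KLF6 was lost without the first untreated SEM WT library (adjusted p 0.096) or the first with IAA (adjusted p 0.123). EGR1 did not pass (0.57 ± 0.30, 95% confidence interval -0.07 to 1.22, adjusted p 0.144), nor did KLF13 (-0.06, 95% confidence interval -0.17 to 0.05). The auxin differed between these lines as well as the degron, and SEM WT libraries held fewer non-whole counts (2.73 to 2.81% of genes) than CTCF-AID2 libraries (7.07 to 7.83%), so line, agent and processing cannot be told apart.

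**Figure D4:**
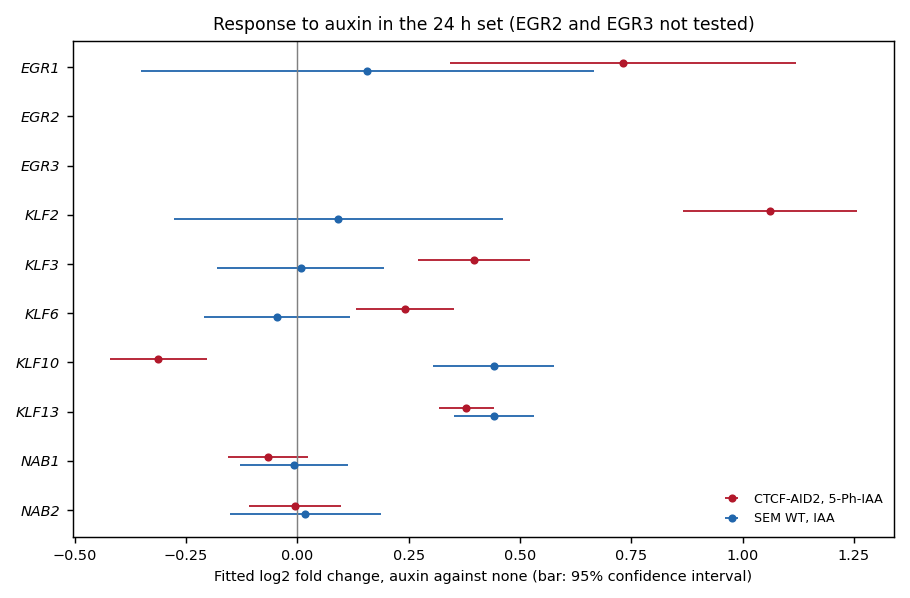
Fitted log2 fold change of auxin against none (x axis) for each member (y axis) at 24 h in CTCF-AID2 cells with 5-Ph-IAA and SEM WT cells with IAA, with 95% confidence intervals as bars. The intervals of the 2 lines are apart for KLF2 (0.87 to 1.26 against -0.28 to 0.46), KLF3, KLF6 and KLF10, and overlap for EGR1, KLF13, NAB1 and NAB2.

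Before any auxin the 2 lines of the 24 h set already differed in 6 of 8 members, with 70.6% of all genes past the test (35.2% higher and 35.4% lower). NAB2 was higher in CTCF-AID2 cells (26.9 to 29.5 against 17.1 and 19.1 CPM, log2 difference 0.66 ± 0.07, adjusted p 7.33e-07), as were KLF2 (0.445 ± 0.14, adjusted p 0.0122) and KLF13 (0.22 ± 0.04, adjusted p 8.93e-05). EGR1 (-0.62 ± 0.22, adjusted p 0.0215), KLF10 (-0.38 ± 0.06, adjusted p 4.53e-05) and NAB1 (-0.35 ± 0.05, adjusted p 2.24e-05) were lower. STAT6, the overlapping neighbor of NAB2, was higher too (0.355 ± 0.036, adjusted p 9.26e-07). The call for EGR1 was lost without the fourth untreated CTCF-AID2 library (adjusted p 0.0667) or the second untreated SEM WT library (adjusted p 0.151), and that for KLF2 without the first untreated SEM WT library (adjusted p 0.147).

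Over both sets KLF3 went down in the 6 h mean effect and up at 24 h in CTCF-AID2 cells, and KLF10 up and then down. In single lines at 6 h KLF3 did not pass in dZF1, and KLF10 did not pass in dZF10 or dRBR (-0.05 in dRBR). The values at 6 h and 24 h come from separate experiments with other lines. Across the 12 group means, with each set's shared lines and treatment, the profile of EGR1 was most like those of ZC3H12C (Pearson r 0.977), SAP30L (0.974) and LUZP1 (0.973) among the genes that are not members, of 13615 tested in both sets. For KLF2 these were RHOB (0.987), a small GTPase, JUN (0.986), an AP-1 subunit, and NFKBIZ (0.985), an atypical IκB protein. For NAB2 they were HSH2D (0.990), IGLL1 (0.986), a surrogate light chain of the pre-B receptor, and LINC00969 (0.982). For KLF10 they were EXOC8 (0.952), CEBPG (0.951) and TSEN15 (0.948). Among the members KLF2 and KLF6 were most alike (0.991, above the value of RHOB for KLF2), and NAB2 ran opposite to EGR1 (-0.931). The points share 2 experiments, and the values are given as a description.

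The counts of the gene lists that follow are read beside the shares of all tested genes, which were 25.1% higher and 26.4% lower at 6 h, 29.2% and 29.5% at 24 h in CTCF-AID2 cells, and 9.35% and 9.57% in SEM WT cells, with medians near 0. Of 12 other KLF genes 6 were tested at 6 h and 4 were higher and 1 lower, with a median log2 fold change of 0.13, and at 24 h in CTCF-AID2 cells 1 of 7 was higher and 3 lower (median -0.30). KLF9, a hormone-responsive family member, was at 14.5 to 15.7 CPM without and 9.36 to 11.2 CPM with 5-Ph-IAA at 24 h (log2 fold change -0.51 ± 0.06, adjusted p 2.70e-06), with 0.16 ± 0.05 at 6 h (adjusted p 0.0249, up to 0.0667 on leaving out 1 library) and 0.13 ± 0.08 in SEM WT cells (adjusted p 0.262). KLF12 was higher in CTCF-AID2 cells (0.365 ± 0.045, adjusted p 8.09e-06) and lower in SEM WT cells (-0.55 ± 0.07, adjusted p 5.74e-05), and KLF16 fell in CTCF-AID2 cells (-0.30 ± 0.05) and at 6 h (-0.40 ± 0.10). KLF4, at a level under 1 CPM, was -0.93 ± 0.34 at 24 h (adjusted p 0.0288), with -1.146 to -0.574 and adjusted p of up to 0.0832 when 1 library was left out. Of the SP genes, which bind the same GC boxes, 3 of 5 were higher at 6 h (SP3, SP4 and SP7) and 3 of 5 at 24 h in CTCF-AID2 cells (SP2, SP3 and SP7), with SP7 at 0.32 ± 0.09 at 24 h, and EGR4 was not tested. WT1, whose zinc fingers resemble those of EGR1, was 0.12 ± 0.04 higher at 24 h (adjusted p 0.0364), a call that DESeq2 did not make (adjusted p 0.0901) and that was lost on leaving out 1 library (adjusted p up to 0.132).

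Of 25 other immediate early genes 23 were tested at 6 h, and of the 20 that passed the filter without auxin 12 were higher and 2 lower, beside 25.1% and 26.4% of all genes, with a median of 0.45. BTG2, an antiproliferative gene, went from 20.1 to 24.4 CPM to 35.4 to 45.7 CPM (log2 fold change 0.85 ± 0.06, adjusted p 9.00e-07), and SRF, the factor of the CArG box, from 42.2 to 48.3 CPM to 50.4 to 81.5 CPM (0.59 ± 0.06, adjusted p 6.17e-06). FOSL2 fell slightly at 6 h (-0.17 ± 0.06) and at 24 h in both CTCF-AID2 (-0.345 ± 0.036) and SEM WT cells (-0.21 ± 0.05), although leaving out 1 library could end the call at 6 h (adjusted p up to 0.0789) and in SEM WT cells (up to 0.0748). At 24 h 8 of 20 were higher and 5 lower in CTCF-AID2 cells (median 0.12), with BTG2 at 0.68 ± 0.05 and SRF at 0.52 ± 0.03, and 8 of 20 were higher and 2 lower in SEM WT cells (median 0.17), beside 9.35% and 9.57% of all genes, with SRF at 0.16 ± 0.05 (adjusted p 0.0324, up to 0.388 on leaving out 1 library). ELK1, an SRF partner, was 0.26 ± 0.04 higher in CTCF-AID2 cells at 24 h.

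Of the 13 kinases and GTPases of the ERK cascade 6 were higher and 2 lower at 6 h, 6 higher and 0 lower at 24 h in CTCF-AID2 cells (29.2% and 29.5% of all genes), and 0 higher and 2 lower in SEM WT cells, at medians of 0.07, 0.07 and -0.05. Of 10 feedback inhibitors of the cascade 7 were higher and 0 lower at 6 h (median 0.44, beside 25.1% and 26.4% of all genes), and at 24 h in CTCF-AID2 cells 7 were higher and 2 lower (median 0.37), against 3 and 0 in SEM WT cells (median 0.04). DUSP6, the ERK phosphatase, went from 22.9 to 31.7 CPM to 67.4 to 91.4 CPM at 6 h (1.498 ± 0.055, adjusted p 6.56e-09), and from 40.6 to 43.5 CPM to 60.0 to 64.0 CPM at 24 h (0.55 ± 0.03). It also rose in SEM WT cells (0.305 ± 0.049, adjusted p 0.000717), as did DUSP4 (0.63 ± 0.16, adjusted p 0.0158, up to 0.122 on leaving out 1 library), another ERK phosphatase, which was at 1.47 ± 0.08 in CTCF-AID2 cells at 24 h and 0.69 ± 0.10 at 6 h. DUSP1 rose at 6 h (0.778 ± 0.115) and at 24 h in CTCF-AID2 cells (0.68 ± 0.04), and was -0.11 ± 0.06 in SEM WT cells (adjusted p 0.222).

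Genes listed as downstream of the members did not follow in 1 direction. Of 9 EGR target genes tested at 6 h 2 were higher and 6 lower (median -0.22), among the latter NDRG1, a stress-responsive gene (-0.41 ± 0.04), CBLB, a ubiquitin ligase of lymphocyte tolerance (-0.352 ± 0.045), and ID3, an inhibitor of E proteins (-0.22 ± 0.05). At 24 h in CTCF-AID2 cells NDRG1 (0.27 ± 0.04) and CBLB (0.38 ± 0.05) were higher and ID3 lower (-0.23 ± 0.04), and SOCS3 rose from a level of 0.245 to 0.3 CPM to 0.653 to 1.01 CPM (1.51 ± 0.20). In SEM WT cells NDRG1 was higher too (0.235 ± 0.054) and CBLB lower (-0.348 ± 0.079), calls that leaving out 1 library could end (adjusted p up to 0.0666 and 0.0936). Of 5 KLF2 target genes of lymphocytes 2 were higher and 1 lower at 6 h, and 2 and 2 at 24 h in CTCF-AID2 cells. The chemokine receptor CCR7 was at 0.795 to 1.22 CPM without and 2.45 to 2.82 CPM with 5-Ph-IAA (1.46 ± 0.13, adjusted p 3.09e-07). CDKN1B (p27), a cell cycle inhibitor, was higher at 6 h (0.53 ± 0.05, adjusted p 2.98e-06), and CDKN1A (p21) lower (-0.23 ± 0.05).

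Corepressor subunits that KLF and NAB proteins recruit counted 2 of 10 higher and 3 lower at 6 h (25.1% and 26.4% of all genes) and 5 higher and 0 lower at 24 h in CTCF-AID2 cells (29.2% and 29.5%), with medians of -0.03 and 0.09. CHD4, the NuRD remodeler that NAB2 binds, was at 546 to 555 CPM without and 661 to 681 CPM with 5-Ph-IAA at 24 h (0.28 ± 0.02, adjusted p 7.58e-08). Of 11 TGF-beta pathway genes 5 were higher and 3 lower at 6 h (median -0.00), and 7 were higher and 0 lower at 24 h in CTCF-AID2 cells (median 0.18). TGFBR2, the type II receptor, fell at 6 h (-0.28 ± 0.03, adjusted p 2.85e-05) and was higher at 24 h in CTCF-AID2 cells (0.595 ± 0.032, adjusted p 1.86e-09), with -0.01 ± 0.05 in SEM WT cells.

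**Figure D5:**
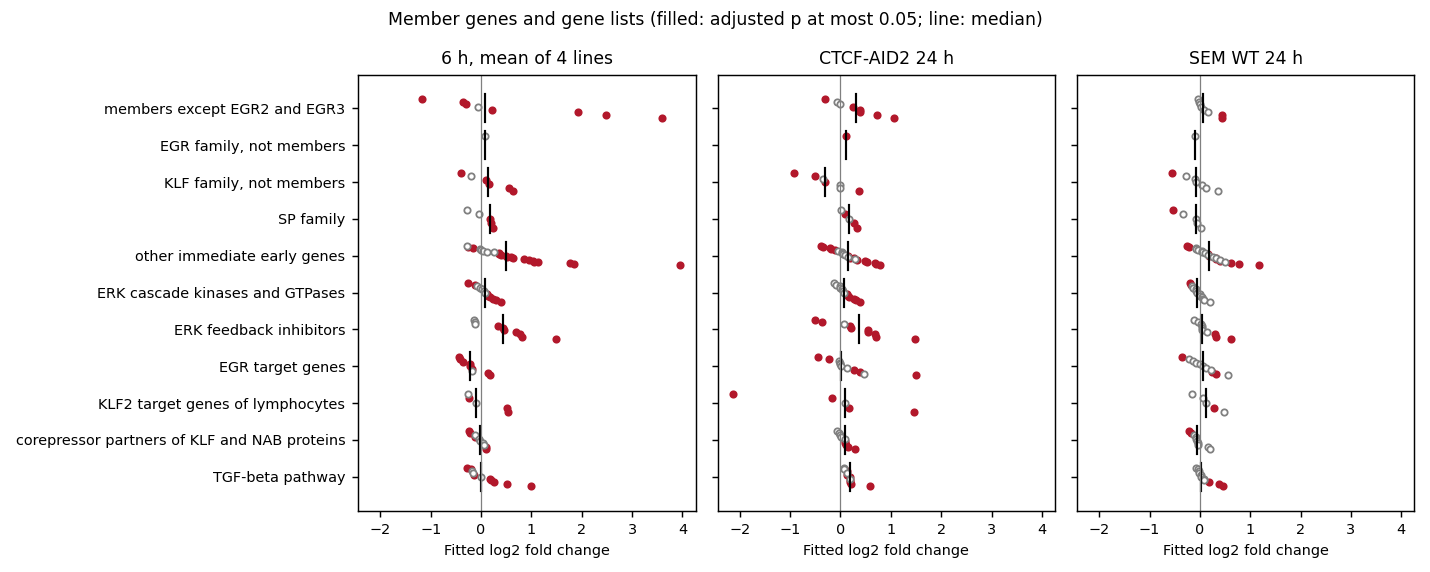
Fitted log2 fold changes (x axis, the same in all panels) of the members other than EGR2 and EGR3 and of each gene list (y axis) in the 6 h mean effect and in the 2 lines of the 24 h set. Each point is a tested gene, filled where it passed the test, and vertical lines are medians. The panel of other immediate early genes at 6 h shows all 23 tested (median 0.50), of which 3 passed the filter only with auxin. The 20 that passed it without auxin (median 0.45) and the ERK feedback inhibitors (median 0.44) lie to the right at 6 h. The EGR target genes lie to the left (median -0.22).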

How the data were processed

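RNA-seq values of 28 libraries were used. The authors ran Trim Galore 0.6.3, then STAR 2.7.9a on hg19, then RSEM 1.3.1 with Gencode genes. The deposited files hold expected counts per gene, not normalized, and TPM, which RSEM in the authors' hands scales by transcript length. The labels name a 3′ kit and the methods a stranded total RNA protocol, and strand use in counting was not stated. Matrices repeating the 6 h values were left out. Expected counts were rounded, and 92 spike-in entries, all at 0, were dropped. Genes above 1 CPM in at least 1 library of a set were tested (13973 at 24 h, 13902 at 6 h). For each set a single limma 3.58.1 fit (voom, TMM factors of edgeR 4.0.16, R 4.3.3) had 1 mean per group, with Benjamini-Hochberg adjustment over all tested genes. The steps were tested on simulated data. TPM served only to order genes by level.

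Groups came from the labels, and 15 comparisons were made, namely auxin against none, differences of these effects and untreated lines against each other. Since separate cultures are not stated for replicates, p-values may measure technical spread only. The members and gene lists were chosen with earlier results of these data known. Named are all members, CTCF, up to 4 genes of each list with the smallest adjusted p in CTCF-AID2 cells at 24 h, and the 3 genes most like EGR1, NAB2, KLF2 and KLF10 over group means (Pearson r of log2 of CPM + 0.5, each set centred). Some list genes that this rule names are not reported here. STAT6 was added as a neighbor of NAB2. Gene spans are from a Gencode annotation lifted to hg19. Other settings tried were edgeR's quasi-likelihood test, DESeq2 1.42.0, RLE factors, unscaled library sizes, no or a stricter count filter, fits on the compared groups alone, a replicate block, and omission of single libraries.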

Additional observations from a re-analysis of the deposited data

Results flagged for a closer look

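KLF2, KLF3, KLF6, KLF10 and CTCF were marked because their response to auxin at 24 h differed between CTCF-AID2 and SEM WT cells in the test of the difference itself. The differences, CTCF-AID2 minus SEM WT on the log2 scale, were 0.97 for KLF2, 0.39 for KLF3, 0.29 for KLF6, -0.75 for KLF10 and 0.88 for CTCF. NAB2 was marked for 1 library far from the other 3 in treated CTCF-AID2 cells, at 26.9 CPM against 29.0 to 29.2 CPM, a gap of 0.905 of the group's range. Chance marks about 1 in 20 groups in this way, and 20 groups of 4 libraries were looked at.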

How the results depend on the processing

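The number of members past the test stayed within 1.5 times its value under every alternative that was run, with these exceptions, where counts at 6 h are of 10 and include EGR2 and EGR3. With only the groups compared 0 members passed in dZF1 instead of 8. Leaving out 1 library gave 5 to 8 members in dRBR and 0 to 2 for the difference of dZF1 and WT responses. The ranges over the other comparisons when 1 library was left out were 6 to 9 in the WT line, 6 to 9 in dZF1, 6 to 8 in dZF10, 9 to 10 for the 6 h mean, 3 to 4 for the 24 h difference and 5 to 6 for the untreated lines of the 24 h set, and the count did not move from 6 in CTCF-AID2 and 2 in SEM WT cells at 24 h. No member past the test turned its direction under an alternative. The order of KLF3 and KLF6 per length was exchanged when counts per kilobase of exons replaced TPM.

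The replicate numbers were not taken to pair the libraries, since no label ties them to a shared culture or day and the deviations gave mixed signs, a hint from the data only. Deviations from the group mean of libraries with the same number correlated at -0.421 to 0.103 in CTCF-AID2 cells, and at 0.372, -0.347, 0.446 and 0.275 in the WT, dZF1, dZF10 and dRBR lines. With the replicate number as a block the counts of members past the test were 6, 2, 4 and 6 in the comparisons at 24 h and 9, 8, 8, 8 and 9 at 6 h, as without it, and 7988 against 8200 genes passed in CTCF-AID2 cells. Over all genes the difference of dZF1 and WT responses had 46 genes past the test, with 18 under the replicate block, 27 with the dZF1 numbers crossed (a pairing added after seeing the data), 401 by DESeq2, 12 with no filter and 0 with only the groups compared. That of dZF10 had 6, against 13, 3 and 2 by DESeq2, with no filter and with only the groups compared. With no filter 1238 instead of 1899 genes passed in the WT line and 907 instead of 1457 in dRBR, and with only the groups compared 3461 and 2646, and 2 instead of 4665 in dZF1. Untreated dZF1, dZF10 and dRBR, with 0 genes past the test, gave 16, 1 and 15 by DESeq2, up to 2 with no filter and up to 22 with only the groups compared. With no filter the median log2 fold change of all genes was -0.128 in the WT line, against -0.002. Depth limits EGR2, EGR3 and KLF2 in untreated libraries, with as few as 2, 4 and 28 reads.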
